A study of Sus scrofa with 6 samples.

Results

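HOX genes were taken as every gene whose symbol in the deposited gene table was HOX followed by a cluster letter from A to D and a paralogue number, which gave 33 of the 22861 genes listed. The series measured abdominal aorta of miniature swine of the line labelled WMS by RNA sequencing in 6 pools. Lesion replicates 1 to 3 came from swine labelled WMS FH whose aorta carried atherosclerotic lesions, and lesion-free replicates 4 to 6 from swine labelled WMS normal. RNA of 11 animals a group went into its 3 pools. The animals of each pool, their age, sex, diet and causal allele are not given in the labels. FH, the usual short form for familial hypercholesterolaemia, and the presence of lesions always went together, so genotype and lesion cannot be told apart here. A pool was the unit of replication, and the spread between pools need not equal that between animals.

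HOX proteins are homeodomain transcription factors that give the cells of an embryo their place along the body from head to tail. Their genes lie in clusters named A to D, which arose by duplication, and genes with the same paralogue number in different clusters descend from the same ancestral gene. Low numbers lie at one end of a cluster and are used towards the head, and high numbers lie at the other end and are used towards the trunk's end, the limbs and the genital tract. Adult smooth muscle cells and fibroblasts keep much of the HOX pattern of the place where they arose, and vascular smooth muscle of different stretches of the aorta differs in it.

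Mammals are known to carry 39 HOX genes. The table named 33 by symbol. HOXA9 was present only as an identifier and had a count of 0 in every pool, and no row was matched to HOXA13, HOXC4, HOXC5, HOXC9 or HOXD11, which were not analysed here. Of the 33 genes, 28 had a count in at least 1 pool and 12 had a count in all 6. HOXB1, HOXB13, HOXC12, HOXC13 and HOXD12 had a count of 0 in all 6 pools. A count of 0 allows up to 3 counts, which is a scaled CPM (counts per 1000000 of the scaled library) of 0.577 for lesion replicate 1 and between 0.268 and 0.360 elsewhere, for counting error only.

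The pools differed in depth. Lesion replicate 1 held 4650176 counts and the other 5 pools held 8492673 to 11442433. It had a count for 10754 genes, where the others had one for 11834 to 13502. Markers of smooth muscle, the main cell of the aortic wall, were at high levels in every pool, with 12 of 12 matched genes tested and a summed level of 46902 to 115890 CPM. Some of the results that moved with lesion replicate 1 are given with and without it.

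In clusters B and C the genes of highest number had no count, while in A and D counts were found up to the last listed gene. In cluster A, 9 of 9 listed genes had a count, up to HOXA11, known from kidney and forearm development. In cluster B, 8 of 10 had one, up to HOXB9, a gene of the thoracic skeleton, while HOXB13, known from prostate and tail, stood at 0. In cluster C, 4 of 6 had one, up to HOXC11, while HOXC12 and HOXC13, the latter a gene of hair and nail, stood at 0. In cluster D, 7 of 8 had one, and the highest was HOXD13, a gene of the digits and genital tract, with a single count in lesion-free replicate 4. That is below the 3 counts that a count of 0 allows.

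By paralogue number, counts summed over the 6 pools and over the clusters were low at both ends. At the low end, HOXB1 had 0 counts and HOXD1 had 26. At the high end, paralogue 12 had 0 counts over 2 listed genes and paralogue 13 had 1 count over 3. Every paralogue number from 2 to 10 had at least 496 counts, the most being 2811 for paralogue 7. Paralogue 11 stood lower, with 135 counts over 2 listed genes. These are counts and not divided by transcript length, because no lengths were available, so they do not order the genes by number of transcripts.

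**Figure D1:**
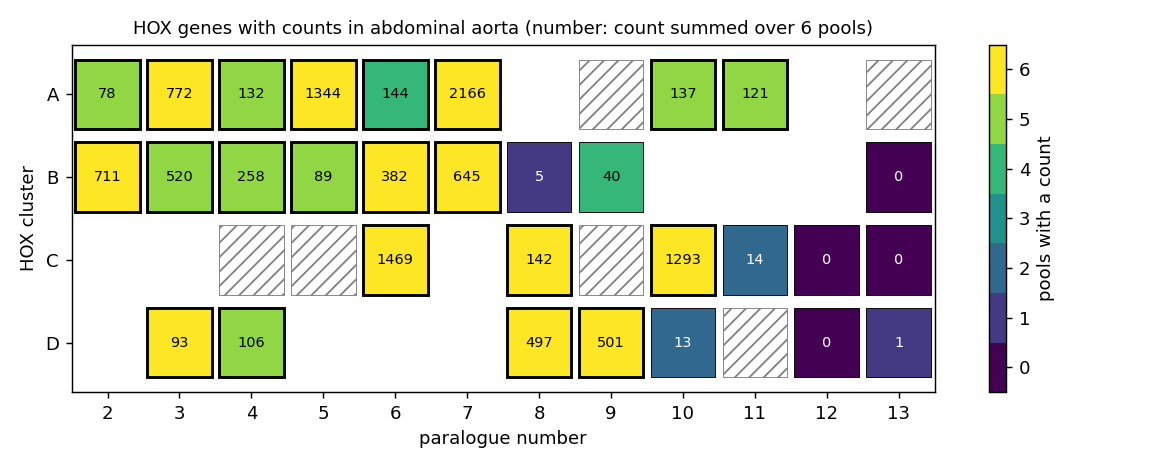
HOX genes of paralogues 2 to 13 by cluster (rows) and paralogue number (columns). Colour gives the number of pools with a count, the printed number the count summed over 6 pools, and a thick outline a gene that was tested. Hatched cells are the 5 genes with no matched row and HOXA9, which has no symbol in the table and a count of 0. Counts are seen from paralogue 2 to 11, and 0 or 1 count at paralogues 12 and 13. Paralogue 1, where HOXB1 had 0 counts and HOXD1 had 26, is not drawn.

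The highest paralogue with a count in each cluster was seen in few reads, HOXA11 apart. HOXA11 had 0, 1.79 and 3.20 CPM in lesion replicates 1 to 3 and 0.971, 4.56 and 1.93 CPM in lesion-free replicates 4 to 6, and the groups overlapped. HOXB9 had 0, 0.626 and 0 CPM in the lesion pools and 2.05, 1.32 and 0.305 CPM in the lesion-free pools, from 40 counts in all. It had a count in every lesion-free pool and in 1 of the 3 lesion pools, but was too low to be tested. In lesion-free replicate 6 it had only 3 counts, as many as a count of 0 allows. Lesion replicate 1, at 0, had the smallest total count of the pools. HOXC11 had 13 counts in lesion-free replicate 5, 1 count in replicate 6 and 0 in the other 4 pools.

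The highest paralogue with a count in all 6 pools was HOXC10, a gene of the lumbar spine and hindlimb that was picked for display after its values were seen. HOXC10 had 30.0, 23.5 and 19.0 CPM in lesion replicates 1 to 3 and 20.7, 22.1 and 29.5 CPM in lesion-free replicates 4 to 6. The groups overlapped throughout, with means of 24.2 ± 5.54 and 24.1 ± 4.73 CPM (SD, n = 3 each). The log2 fold between lesion and lesion-free pools was -0.06, with a 95% interval of -0.79 to 0.68 (limma, adjusted p = 0.972). These pools do not tell folds within that interval apart, and the interval is not a limit of detection.

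The comparison of lesion with lesion-free aorta asked which genes differ in the diseased wall. No HOX gene passed the test, while 17 of the 21 tested had a lower mean level on the log2 scale in lesion pools. With limma, fitted on 11673 genes and adjusted over all of them at a threshold of 0.05, 0 of 21 HOX genes were called higher and 0 were called lower. Among all genes tested, 0.968% were called higher and 0.0771% lower, so with 21 genes a count of 0 is near the background. At an unadjusted p under 0.05, 2 HOX genes were lower (HOXA7 and HOXC6) and 0 higher, where 4.15% of all genes were lower. Each tested HOX gene reached the minimum level for testing in pools of both groups.

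The median log2 fold of the 21 HOX genes was -0.63, against 0.00 for all genes tested, with single genes from -2.12 to 1.85. A log2 fold below 0 was found for 17 of 21 HOX genes and for 50.1% of all genes. The 4 above 0 were HOXA6, HOXA10, HOXC8 and HOXD8, none of them called. In 5 HOX genes every lesion pool lay below every lesion-free pool, and in 0 every lesion pool lay above. Over all genes tested these shares were 8.97% and 10.5%. The median standard error of a HOX gene's log2 fold was 1.16, against 0.448 over all genes. The shares over all genes were not matched to the HOX genes in level, and 8 of the 21 had no count in lesion replicate 1. The 21 were also measured in the same pools, so they are not independent results.

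**Figure D2:**
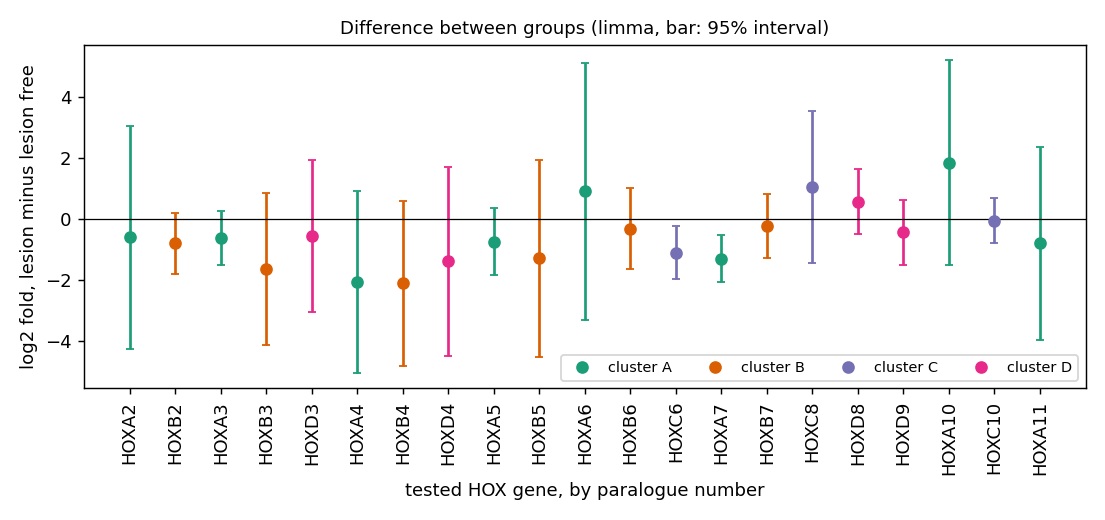
Log2 fold (lesion minus lesion free) of the 21 tested HOX genes from limma, ordered by paralogue number and coloured by cluster, with bars for 95% intervals. The intervals of HOXA7 and HOXC6 lie below 0, and the other 19 cross 0.

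The 5 genes whose groups did not overlap were HOXA4, HOXA7, HOXB2, HOXB4 and HOXC6. HOXA7 (ENSSSCG00000016701), which patterns the vertebrae of the trunk, had 14.1, 23.1 and 27.6 CPM in lesion replicates 1 to 3 and 74.7, 51.9 and 41.5 CPM in lesion-free replicates 4 to 6. All 3 lesion pools were low and the highest of them stayed below the lowest lesion-free pool. The means were 21.6 ± 6.89 and 56.0 ± 17.0 CPM (SD, n = 3 each), a fitted level 2.47-fold lower in lesions. Its log2 fold of -1.30 (standard error 0.36, 95% interval -2.07 to -0.53) did not pass the test (limma, adjusted p = 0.131), and this was the lowest adjusted p of any HOX gene. Without lesion replicate 1 the log2 fold was -1.10 (limma, adjusted p = 0.210).

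HOXC6 (ENSSSCG00000030585), used in embryos around the forelimb and upper thorax, had 6.93, 19.4 and 22.4 CPM in the lesion pools and 38.7, 37.1 and 30.8 CPM in the lesion-free pools. Lesion replicate 1 was the lowest of the 6, and the other lesion pools also stayed below all lesion-free pools. Means of 16.2 ± 8.20 and 35.5 ± 4.17 CPM (SD, n = 3 each) gave a log2 fold of -1.11 (standard error 0.40, limma, adjusted p = 0.312). Without lesion replicate 1 this was -0.76 (limma, adjusted p = 0.432).

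HOXB2 (ENSSSCG00000017533), a hindbrain gene, had 4.23, 11.7 and 9.96 CPM in the lesion pools and 17.7, 12.2 and 18.6 CPM in the lesion-free pools. The gap between the groups was narrow, since lesion replicate 2 and lesion-free replicate 5 nearly met. Its log2 fold was -0.80 (standard error 0.47, limma, adjusted p = 0.576), and -0.57 without lesion replicate 1.

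HOXB4 and HOXA4 belong to the same paralogue group, and HOXB4 is also known for expanding blood stem cells. HOXB4 (ENSSSCG00000017535) had 0, 2.86 and 3.56 CPM in the lesion pools and 7.99, 8.75 and 4.07 CPM in the lesion-free pools. HOXA4 (ENSSSCG00000016704) had 0, 1.52 and 1.64 CPM in the lesion pools and 3.13, 4.20 and 3.36 CPM in the lesion-free pools. In each of them lesion replicate 1 had no count and the other 2 lesion pools lay below the lesion-free pools. Their log2 folds of -2.12 and -2.07 were the lowest of all HOX genes and had wide errors (standard errors 1.26 and 1.39, limma, adjusted p = 0.583 and 0.631). Without lesion replicate 1 they came to -1.01 and -1.13, smaller than in the fit of all pools by over 1.5 times.

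HOXD8 (ENSSSCG00000015983), a trunk gene, had the higher mean in lesion pools. Over all 6 pools it had the highest mean CPM of cluster D (9.50, against 8.96 for HOXD9), but in the lesion-free pools alone HOXD9 was higher (10.6 against 7.62 CPM). HOXD8 had 14.6, 10.8 and 8.68 CPM in the lesion pools and 5.29, 11.2 and 6.41 CPM in the lesion-free pools, and lesion-free replicate 5 lay inside the lesion range. Means of 11.4 ± 3.01 and 7.62 ± 3.11 CPM (SD, n = 3 each) gave a log2 fold of 0.57 with a 95% interval of -0.49 to 1.63 (limma, adjusted p = 0.715). HOXC8, its paralogue in cluster C, had 9.62, 1.25 and 3.66 CPM in the lesion pools and 1.40, 0.839 and 1.83 CPM in the lesion-free pools. Its log2 fold was 1.05 (limma, adjusted p = 0.784), and 0.67 without lesion replicate 1, the only pool above 4 CPM.

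**Figure D3:**
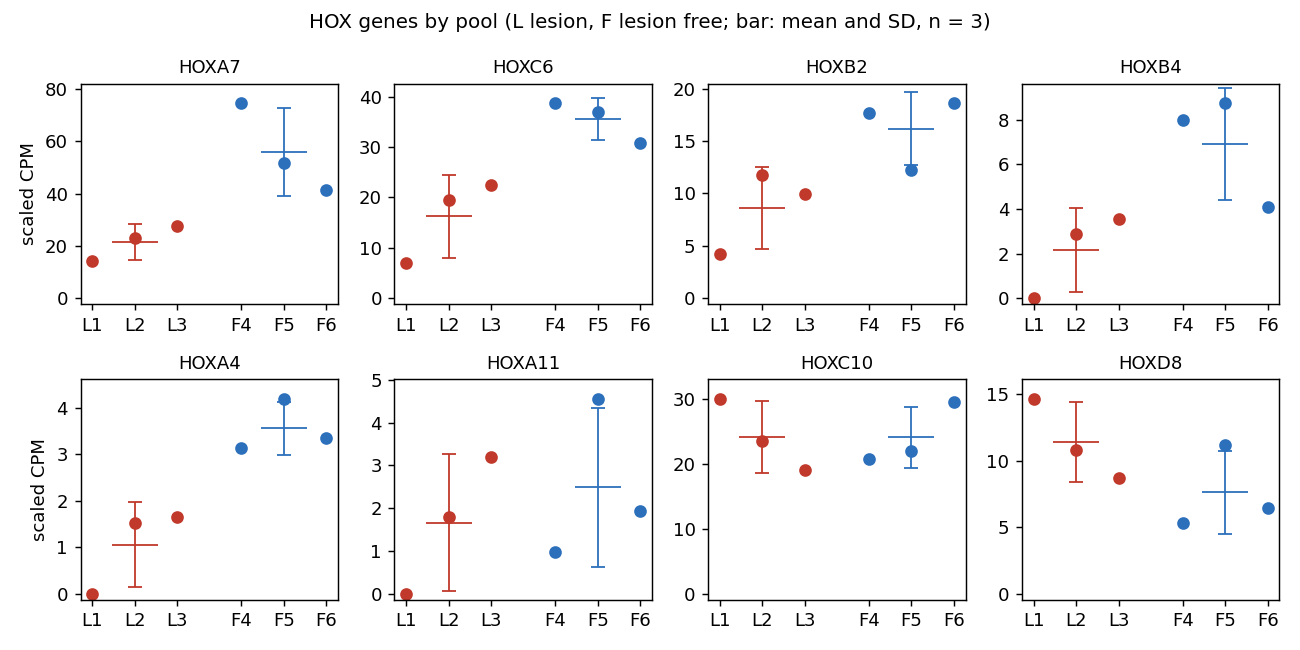
Scaled CPM of 8 HOX genes in each pool, lesion replicates 1 to 3 (L1 to L3, red) and lesion-free replicates 4 to 6 (F4 to F6, blue), with the mean and SD of each group. Each panel has its own scale from 0. HOXA7, HOXC6, HOXB2, HOXB4 and HOXA4 have every lesion pool below every lesion-free pool, while HOXA11, HOXC10 and HOXD8 overlap.

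The remaining 13 tested HOX genes all overlapped between the groups, with log2 folds from -1.65 for HOXB3 to 1.85 for HOXA10. These 2 were -0.32 and 2.19 without lesion replicate 1. HOXA5, known from lung development and from the quiescent endothelium, had 4.04, 30.9 and 19.1 CPM in the lesion pools and 26.7, 29.6 and 27.9 CPM in the lesion-free pools. Its lesion-free pools lay within a narrow range and lesion replicate 1 stood far below the other 5. HOXA3, a gene of the pharyngeal arches and the thymus, had 13.9, 9.38 and 11.1 CPM against 21.7, 12.7 and 16.9 CPM, and overlapped only through lesion replicate 1. HOXD9 had 6.16, 8.40 and 7.31 CPM against 14.5, 6.84 and 10.6 CPM, and 1 lesion-free pool lay within the lesion range.

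HOXB6 and HOXB7, trunk genes of cluster B, had a count in every pool and log2 folds of -0.32 and -0.23. HOXB3 had no count in lesion replicate 1, 13.4 and 5.48 CPM in the other lesion pools and 11.1, 16.2 and 7.32 CPM in the lesion-free pools. HOXA6 and HOXA10, the latter known from the uterus, had no count in lesion-free replicate 5. HOXA6 had 0, 4.47 and 2.10 CPM in the lesion pools against 0.863, 0 and 6.41 CPM. HOXA10 had 0.962, 5.09 and 2.47 CPM in the lesion pools against 3.02, 0 and 2.03 CPM. Neither gene separated the groups. Overlaps were looked up in a reference annotation whose build may differ from that of the counts, which is not given. There the span of HOXA3 overlaps those of HOXA4, HOXA5 and HOXA6, the spans of HOXA5 and HOXA6 overlap, and HOXD9 overlaps HOXD10. The kit was stranded, but the strand setting used for counting is not given in the sources used here, so sharing of reads between these genes could not be assessed.

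By cluster, tested genes below 0 were 6 of 8 in A, 6 of 6 in B, 2 of 3 in C and 3 of 4 in D. The median log2 folds were -0.69, -1.05, -0.06 and -0.50 in that order. Without lesion replicate 1, genes below 0 were 4 of 8, 6 of 6, 2 of 3 and 3 of 4. The medians were then 0.03, -0.35, -0.17 and -0.38, so that of cluster A turned sign. Summed over all 33 HOX genes, the level was 117, 194 and 172 CPM in lesion replicates 1 to 3 and 291, 243 and 236 CPM in lesion-free replicates 4 to 6. Every lesion pool lay below every lesion-free pool, with means of 161 ± 39.4 and 257 ± 30.1 CPM (SD, n = 3 each). With HOXA7 taken out the sums were 103, 171 and 144 CPM against 217, 191 and 195 CPM, and the groups still did not overlap. A sum is led by its most counted members, and no test was made on it.

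The cluster sums differed in how far the groups were apart. Cluster A had 32.9, 77.5 and 69.0 CPM in the lesion pools and 134, 103 and 103 CPM in the lesion-free pools, without overlap. Cluster B had 16.4, 49.0 and 37.5 CPM against 72.2, 55.5 and 48.3 CPM, with overlap between lesion replicate 2 and lesion-free replicate 6. Both clusters were lowest in lesion replicate 1.

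Cluster C had 46.6, 44.2 and 45.1 CPM in the lesion pools and 60.9, 61.5 and 62.3 CPM in the lesion-free pools. The pools of a group lay very close together, at 45.3 ± 1.23 and 61.5 ± 0.69 CPM (SD, n = 3 each), although lesion replicate 1 was the lowest pool for HOXC6 and the highest for HOXC8 and HOXC10. Cluster D had 21.6, 23.3 and 20.5 CPM against 24.2, 22.8 and 23.0 CPM, with overlap and means of 21.8 ± 1.44 and 23.3 ± 0.75 CPM. As a share of the HOX counts of a pool, cluster D took 18.4%, 12.0% and 11.9% in the lesion pools and 8.30%, 9.37% and 9.74% in the lesion-free pools, so every lesion pool lay above.

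By position along the clusters, the sum over paralogues 1 to 3 was 18.9, 37.5 and 30.8 CPM in the lesion pools and 55.3, 44.6 and 47.9 CPM in the lesion-free pools. The sum over paralogues 4 to 8 was 61.4, 116 and 109 CPM against 195, 162 and 143 CPM. In both bands every lesion pool lay below every lesion-free pool. The sum over paralogues 9 to 13 was 37.2, 40.2 and 32.0 CPM against 41.3, 36.3 and 44.9 CPM, and these overlapped, with means of 36.5 ± 4.16 and 40.8 ± 4.28 CPM (SD, n = 3 each).

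Tested genes below 0 were 5 of 5 in paralogues 1 to 3 (median log2 fold -0.63), 9 of 12 in paralogues 4 to 8 (median -0.93) and 3 of 4 in paralogues 9 to 13 (median -0.25). With lesion replicate 1 left out they were 4 of 5 (median -0.38), 9 of 12 (median -0.34) and 2 of 4 (median 0.04, a turned sign). Whether the bands differ from each other was not tested, and HOXC10 makes up most of the last one. Within the middle band, paralogue 8 went the other way from its neighbours, with 24.3, 12.5 and 12.3 CPM in the lesion pools and 6.69, 12.0 and 8.24 CPM in the lesion-free pools. Lesion replicates 2 and 3 lay just above lesion-free replicate 5. Paralogue 7, by contrast, had 20.4, 33.4 and 40.5 CPM against 93.7, 64.0 and 49.4 CPM, most of it HOXA7.

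The make-up of the HOX counts of a pool also differed. HOXA7 gave 12.0%, 11.9% and 16.0% of all HOX counts in lesion replicates 1 to 3 and 25.6%, 21.4% and 17.6% in lesion-free replicates 4 to 6, so every lesion share was lower. HOXC10 gave 25.6%, 12.1% and 11.1% against 7.11%, 9.08% and 12.5%, with overlap. Shares of 1 total are bound to each other: where HOXA7 takes less, others take more.

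**Figure D4:**
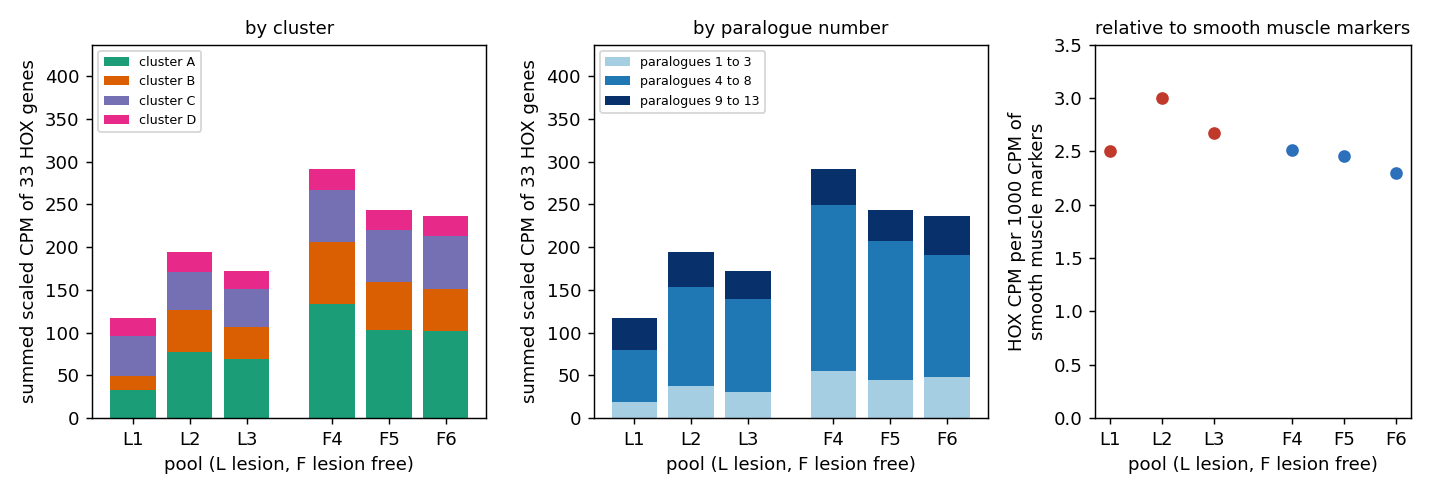
Summed scaled CPM of the 33 HOX genes in each pool, stacked by cluster (left) and by band of paralogue numbers (middle), and the same sum per 1000 CPM of 12 smooth muscle markers (right). L1 to L3 are lesion and F4 to F6 lesion-free pools. The stacked sums run from 117 to 194 CPM in lesion pools and from 236 to 291 CPM in lesion-free pools, and the ratios on the right overlap.

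Lesion replicate 1 stood apart from the other pools in its HOX counts. It had a count for 13 of the 33 HOX genes, against 22 to 26 in the other 5 pools. Of the 21 tested genes, 8 had no count in it (HOXA2, HOXA4, HOXA6, HOXA11, HOXB3, HOXB4, HOXB5 and HOXD4), where the other pools had 0 to 2 such genes. It was the lowest pool, ties included, for 15 of the 21 and the highest for 3 (HOXC8, HOXC10 and HOXD8). The median difference of the 21 genes from the lesion-free mean, on the log2 scale, was -1.94 in lesion replicate 1, -0.20 in replicate 2 and -0.47 in replicate 3. Over all genes it was -0.09, 0.08 and 0.08.

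For some genes this pool held fewer counts than the other lesion pools and its own depth would give, and for others more. At the mean CPM of the other 2 lesion pools, 49.1 counts of HOXB3 would have been found in lesion replicate 1, and 0 were. For HOXA5 the values were 130 and 21 counts. For HOXC8 they were 12.7 and 50 counts, and for HOXC10 110 and 156 counts. Loss of counts in this pool was not particular to HOX genes. Among all tested genes with a count in the other 5 pools and a mean there of 1 to 5 CPM, 39.3% of 1764 had no count in lesion replicate 1, as did 5 of 7 HOX genes. At 5 to 20 CPM it was 7.64% of 3441 genes and 2 of 8 HOX genes, HOXB3 and HOXB4. The part of depth in these values was not tested.

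Without lesion replicate 1, 15 of the 21 HOX genes still had a log2 fold below 0, where 44.8% of all genes did. The median HOX log2 fold was -0.32, and that of all genes 0.07. In 6 HOX genes the other 2 lesion pools lay below all lesion-free pools, the 5 above and HOXA3, against 11.8% of all genes. The 5 meet this by construction, since leaving out a lesion pool cannot undo it, so only HOXA3 was added. HOXA11 changed sign, from -0.80 to 0.25, as did HOXA2, from -0.61 to 0.31. No HOX gene was called in that fit either, with 2 at an unadjusted p under 0.05.

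Marker sums of cell types were set beside the HOX sums, and they did not all go the same way. The 12 smooth muscle markers summed to 46902, 64623 and 64458 CPM in the lesion pools and to 115890, 99106 and 102730 CPM in the lesion-free pools, and 2 of them were called lower, CNN1 and DES, a calponin and an intermediate filament of contractile cells (limma, adjusted p = 0.0251 and 0.0468). The 14 macrophage markers summed to 3202, 1446 and 3071 CPM in the lesion pools against 370, 250 and 192 CPM, and 9 of the 12 tested were called higher, among them CD68, MSR1 and CSF1R. MRC1, CD14 and ITGAM were tested and not called. MRC1 was the only tested one with a log2 fold below 0 (-0.91, limma, adjusted p = 0.720), at means of 7.72 CPM in lesion and 12.6 CPM in lesion-free pools. CD163 and MARCO were at 0 in 4 of the 6 pools, and the other 12 macrophage markers had a count in every pool, lesion-free ones included. The 10 fibroblast markers summed to 1811, 2150 and 2077 CPM against 2564, 2120 and 1893 CPM, which overlapped, with 0 called.

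Set against the smooth muscle sum, HOX CPM per 1000 CPM of markers was 2.50, 3.00 and 2.67 in the lesion pools and 2.51, 2.45 and 2.30 in the lesion-free pools. The groups overlapped on that scale, and 2 of the 3 lesion pools were the highest. Set against the fibroblast sum, it was 64.8, 90.2 and 82.8 in the lesion pools and 114, 115 and 125 in the lesion-free pools, and every lesion pool lay below. A marker sum, too, is led by its most counted members. In the smooth muscle sum these were ACTA2 and TAGLN, at means of 24100 and 23052 CPM in lesion-free pools. In bulk tissue, fewer cells of a type and less RNA per cell cannot be told apart, and the part of cell make-up in the HOX values was not tested.

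HOX proteins bind DNA together with cofactors of the TALE class, such as PBX and MEIS. Of 11 such genes, 8 were matched and tested, 0 were called in either direction, and the median log2 fold was -0.17. The smallest p was that of MEIS3, at 19.8 ± 2.61 CPM (SD, n = 3) with lesions and 33.6 ± 7.68 CPM (SD, n = 3) without (limma, adjusted p = 0.449).

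The state of HOX clusters is kept by Polycomb proteins, which silence them, and by Trithorax proteins, which keep them active. Of 27 Polycomb genes 21 were tested, with 0 called and a median log2 fold of 0.15. The smallest p there was that of PHF1, a subunit that recruits the repressive complex (limma, adjusted p = 0.351). Of 15 Trithorax and related genes all were tested, with 0 called and a median log2 fold of -0.06. The smallest p there was that of KDM6A, which removes the Polycomb mark (limma, adjusted p = 0.519).

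Retinoic acid turns on HOX genes of low paralogue number in embryos. Of 17 retinoic acid genes 13 were tested, with 0 called and a median log2 fold of -0.26. DHRS3, which limits retinoic acid by reducing retinal, had 171 ± 45.1 CPM (SD, n = 3) with lesions and 288 ± 23.5 CPM (SD, n = 3) without (limma, adjusted p = 0.269). Of 10 genes of the caudal and axial set, which pattern the embryo's axis and tail end, 3 were tested and 0 called, the smallest p being that of GDF11 (limma, adjusted p = 0.547). Of 23 position genes of limb, heart and head, 5 were tested and 0 called, the smallest p being that of HAND2 (limma, adjusted p = 0.553).

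Genes next to the HOX clusters were looked at as well. Of 16 neighbours, 11 were tested, 0 were called, and the median log2 fold was 0.07. SNX10, a sorting nexin in the neighbourhood of cluster A, had 38.8 ± 23.9 CPM (SD, n = 3) with lesions and 3.40 ± 0.24 CPM (SD, n = 3) without, a log2 fold of 3.20 (limma, adjusted p = 0.0762). It had every lesion pool above every lesion-free pool, opposite to HOXA4 and HOXA7 of cluster A. EVX1 and EVX2, homeobox genes that lie beyond paralogue 13 of clusters A and D, had a count of 0 in all 6 pools.

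In the isoform table, 38 entries carried a HOX name. Of these, 28 had the same counts in every pool as the gene of that name, and 7 had a count of 0 throughout, so the isoforms added no other measurement for those genes. Of the isoforms of HOXA7, ENSSSCT00000030592 carried all counts and ENSSSCT00000018182 was at 0. In 3 entries the counts equalled at least 1 other gene and not the gene of their name. One such entry, ENSSSCT00000029055, was named HOXC6-201 and had 15 counts in lesion-free replicate 5 and 0 in the other pools, where a different entry of that name held the counts of HOXC6. The counts of ENSSSCT00000029055 equalled those of 5 genes, so the match does not pick out 1 gene.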

How the data were processed

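Estimated read counts per gene and per isoform were deposited by the authors for 6 pools. The tools named, per the submitters' processing notes, are RSEM 1.3.0 and edgeR, with no role stated. No source used here gives the aligner, genome build or strand setting, so no coordinates are printed. RSEM shares reads among similar genes by estimation, which can make counts of near-identical genes uncertain. Deposited values carried commas, which were removed. The values were whole numbers, but were recorded as another unit because of the commas, so limma (version 3.58.1, R 4.3.3) was used in place of a count model.

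A gene entered the test with 15 or more counts overall and 3 or more pools at 1.00 CPM, which is 10 counts at the median library size. With a pool left out, the pools required were as many as the smaller group held. Scaling used the trimmed mean of M values (30% of M and 5% of A trimmed). Voom weights, 0.5 counts added before the log, and robust empirical Bayes moderation were used. All p-values are two-sided and adjusted by Benjamini-Hochberg over the genes tested in the fit. These were 11673 in the fit as reported and 12179 without lesion replicate 1. Printed CPM are counts over the scaled library. The script was tested on simulated data. Gene neighbours and overlaps came from the RefSeq table of assembly Sscrofa11.1. Names of unnamed rows came from a separate reference list of gene names, which held 11450 of the identifiers. No transcript lengths were used, so the planned comparison of levels between genes per length was not made. No sequences are shown. The values of 1 HOX gene are not reported here.

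By rule, values per pool were given for HOX genes whose groups did not overlap, for that with the highest mean CPM in each cluster and for the highest paralogue detected in each. Other HOX genes with values per pool were chosen after their values were seen. Of each other list, called members or, with none called, the one with the smallest p were named. The members, gene lists and tests were chosen with earlier results of these data known. Alternatives were median-of-ratios scaling, plain totals, no low-count filter, limma-trend with a prior count of 2, sample quality weights, ordinary empirical Bayes and leaving out each pool.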

Additional observations from a re-analysis of the deposited data

How the results depend on the processing

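With limma, 0 HOX genes were called higher and 0 lower in the fit as reported and under each of the 12 alternatives, with 2 or 3 of 21 at an unadjusted p under 0.05. The lowest adjusted p of a HOX gene ran from 0.0838 with sample quality weights to 0.309 without lesion-free replicate 5. The number of the 21 with a log2 fold below 0 ran from 15 to 18 and their median from -1.04 to -0.32. HOXA7 (-1.50 to -1.01), HOXC6 (-1.37 to -0.76), HOXB2 (-1.04 to -0.57), HOXB4 (-3.07 to -1.01), HOXA4 (-2.78 to -1.13) and HOXD8 (0.34 to 0.85) kept their direction under all 12. All but HOXD8 were named because every lesion pool lay below every lesion-free pool. Leaving out 1 pool could hardly turn their sign, so those alternatives do not test their direction. HOXA11 (log2 fold -0.80) ran from -1.84 to 0.25 with 1 pool left out, the latter without lesion replicate 1, and the cause was not tested. Plain totals moved the median log2 fold of all genes to 0.16, with 16 of 21 HOX genes below 0. Over all genes, 113 were called higher and 9 lower. These counts were 171 and 17 without the low-count filter, for which 14918 genes were tested, and 213 and 40 with sample quality weights. Leaving out 1 pool gave 55 to 150 higher (65 without lesion-free replicate 5 and 55 without 6) and 4 to 36 lower (5 without lesion replicate 1, 36 without lesion replicate 3, 21, 4 and 4 without lesion-free replicates 4, 5 and 6). The cause of these shifts was not tested. The count of HOX genes with every lesion pool below was 5, and 6 without lesion replicate 1, an alternative added after the data were seen, as were the counts and medians by cluster and band without that pool. The 5 stay in that count by construction. No paired analysis was possible because the pools are numbered 1 to 6 and the groups share no number. Lesion replicate 1 had the smallest total count, and the part of depth in its HOX values was not tested.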
